A study of Mus musculus with 4 samples.

Results

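Heat shock proteins and their J domain cochaperones were followed in mouse islet cells given MOTS-c, a peptide encoded in the mitochondrial genome, or a scrambled peptide of the same amino acids. The genes were chosen by symbol: the DNAJA, DNAJB and DNAJC genes, HSP70 and HSP110, small heat shock protein and cytosolic HSP90 genes, and the mitochondrial chaperonins Hspd1 and Hspe1, without Hspa5 and Dnajb9. This gave 66 genes of 22912 with a symbol on the array, and 57 of them were measured, that is, had a probe that 2 or more of the 4 arrays read well above background. The 57 were well above background on all 4 arrays.

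The 4 one-color arrays each held the RNA of 1 sample of pancreatic islet cells, taken from 60-week-old male C57BL/6 mice (4 littermates), dispersed into single cells from handpicked islets and treated outside the animal for 24 h. Scrambled replicates 1 and 2 received the control peptide and MOTS-c replicates 2 and 3 received MOTS-c, both at 10 μM. No group was left untreated, and all mice were of the same strain, labeled sex and age. The study asked how MOTS-c alters transcription in islet cells of old mice.

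Heat shock proteins are molecular chaperones that bind unfolded or partly folded proteins. HSP70 proteins bind and release their clients in an ATP-driven cycle. J domain proteins deliver the clients and stimulate the ATPase of HSP70, and the HSP110 proteins act as nucleotide exchange factors that open it again. HSP90 takes over later steps of maturation, small heat shock proteins hold aggregation-prone proteins without ATP, and the Hspd1 and Hspe1 proteins form the folding chamber of the mitochondrial matrix. When unfolded proteins accumulate, the transcription factor HSF1 binds heat shock elements in promoters and raises many of these genes. Beta cells make proinsulin in the endoplasmic reticulum (ER), where a further HSP70 and several J proteins of the ER work.

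The 4 arrays were of similar quality. Between 61.6% and 65.0% of gene spots were well above background, no gene spot was saturated, and all arrays lay on 1 slide read in 1 scan. Of the beta cell markers, 9 of 10 were measured, with Ins2 at 18.6 and Ins1 at 18.1 (mean normalized log2 signal), while Ucn3 was not well above background and the beta cell glucose transporter Slc2a2 was dim and lower with MOTS-c (log2 fold change -1.33). Of the other beta cell markers, Iapp (0.07), Mafa (0.16) and Nkx6-1 (0.12) were higher and Pdx1 (-0.28), G6pc2 (-0.19) and Ins1 (-0.04) lower without overlap. At the top of the range quantile normalization sets values by rank (Ins1 was 18.13 on both scrambled arrays), so the order of Ins1 reflects rank only. The summed signal of the 5 measured of 9 acinar markers lay at 12.2 to 12.3 (log2) with the scrambled peptide and at 11.3 to 11.6 with MOTS-c. Of these 5, 2 were lower without overlap, among them Cela1 (-0.76), the dim Ctrb1 was higher without overlap (0.33) and 2 overlapped. Of the 4 measured of 5 alpha cell markers, 3 were higher without overlap, among them the dim Irx2 (0.68), and Ttr was lower with overlap (-0.27). The hormone genes Gcg and Sst were at 15.6 and 17.3. Summed signals of the delta and PP (3 of 3 markers measured), ductal (3 of 5 markers measured), endothelial (2 of 5) and immune (3 of 6) lists overlapped between groups, with Krt19, Sox9, Cdh5, Kdr, Ptprc and Adgre1 not well above background. Those of the beta and alpha lists were apart by narrow margins. The beta sum lay at 19.7812 to 19.8167 with the scrambled peptide and 19.7551 to 19.7751 with MOTS-c, and the alpha sum at 15.8176 to 15.9035 and 15.9038 to 15.9257. Ins2 and Ins1 are the brightest genes of the beta sum and are set by rank, so its order was not read further. Ins2 was 18.5447 in scrambled replicate 1 and in both MOTS-c samples. The summed mesenchymal signal (4 of 9 measured, without Col1a1, Col3a1, Dcn, Lum and Pdgfrb) lay at 12.4 to 12.5 with the scrambled peptide and 12.3 with MOTS-c. Of these 4, Acta2, the brightest (-0.14), and the dim Pdgfra (-1.05) were lower without overlap. Col1a2 (-0.30) and Tagln (0.54) overlapped. The part of these differences in the results on chaperones was not tested. In such bulk RNA, fewer cells of a type and less RNA per cell cannot be told apart. The labels give male mice, but no Y-linked probe was well above background in any of 28 probe and array pairs, and the Xist probe was well above background on all 4 arrays, so the labeled sex goes against the data in both groups.

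No chaperone gene changed at an adjusted p under 0.05 by limma, and neither did any other of the 35087 probes tested, of which 2755 had an unadjusted p under 0.05. The methods' test likewise called no chaperone gene after adjustment, and 1 other gene. The smallest adjusted p by limma among the chaperone genes was 0.500. At an unadjusted limma p under 0.05, 5 of the 57 measured genes were called (8.77%). This was near the 8.61% of all 15470 genes compared through their brightest probe. Calls were rarer among bright genes, at 2.77% of the 4011 genes at or above the chaperone genes' median signal of 12.4. All 5 called chaperone genes were higher with MOTS-c, where 2.82% of all genes were called higher and 5.79% lower. Hspa4 and Dnajc12 lay above that median signal, and Hspa1b, Hspa1a and Dnajc1 below it. Signals are log2 values after quantile normalization, fold changes are MOTS-c minus scrambled, and SE is the standard error from limma. Signals of different genes come from different probes and were not set against each other. Nothing in the labels ties a sample to 1 animal, so p-values measure only the spread between these samples, and 0.333 is the smallest two-sided p of an exact permutation test of 2 against 2 samples.

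**Figure D1:**
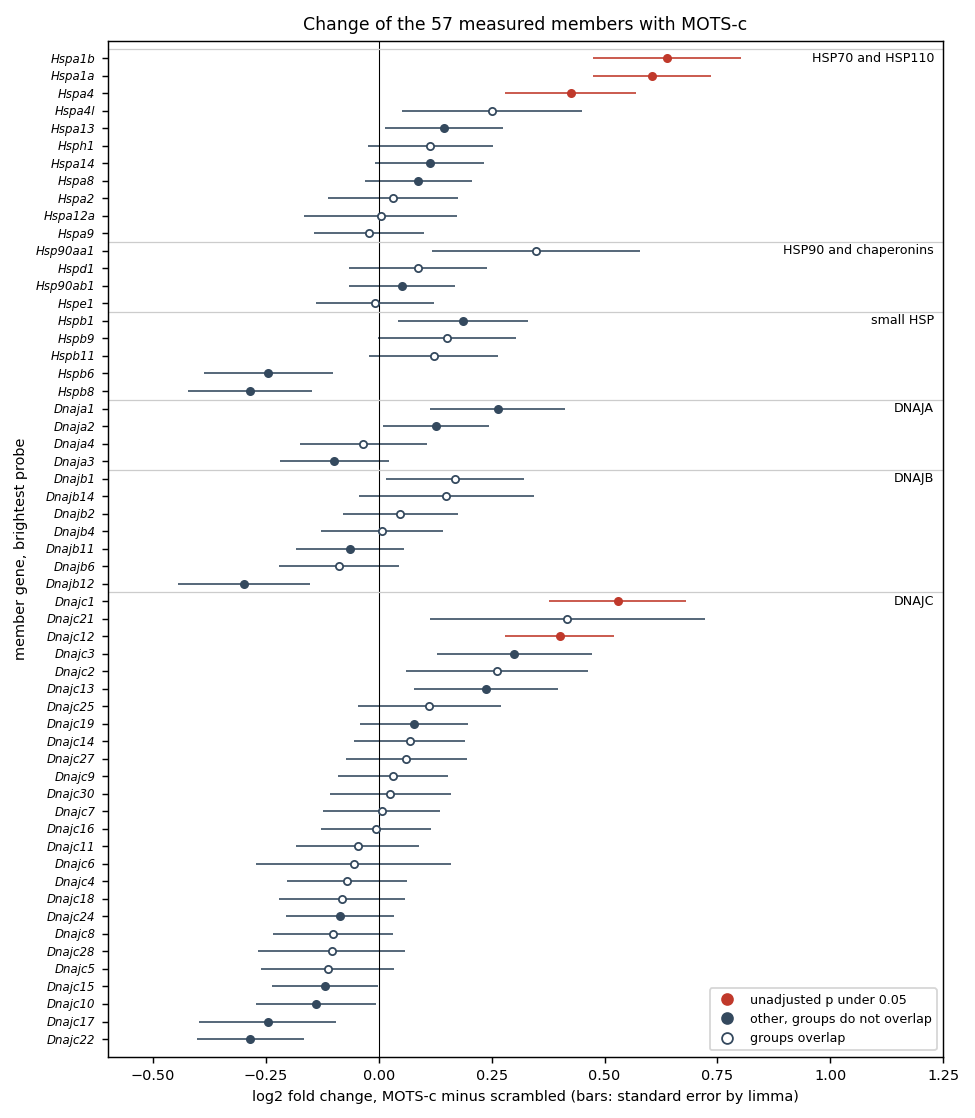
Log2 fold change (MOTS-c minus scrambled) of the 57 measured chaperone genes by family, with bars for the standard error by limma. Red points mark the 5 genes at an unadjusted p under 0.05, all to the right of 0, filled points genes whose groups did not overlap and open points genes whose groups overlapped; most genes lay between -0.30 and 0.30.

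Differences were small across the families. The median size of the log2 fold change was 0.11 for the chaperone genes and 0.14 for all genes, and their standard errors ranged from 0.12 to 0.30. Of the 57 genes, 15 were higher in both MOTS-c samples than in both scrambled samples (26.3%, against 19.8% of all genes), 10 were lower in both (17.5%, against 22.7%) and 32 overlapped. Together the 25 genes without overlap were 43.9% of those measured, near the 42.5% of all genes. Hspa1a and Hspa1b reached 1.5-fold upward and no gene reached it downward, against 1.44% and 4.21% of all genes. Neither gene reached it under the normexp background correction, without scrambled replicate 1 (then Dnajc1, Dnajc21 and Hsp90aa1 did) or without MOTS-c replicate 2 (then Dnajc1 and Dnajc21 did). By family, the log2 fold changes had a median of 0.11 for the 11 measured HSP70 and HSP110 genes, 0.07 for the 4 HSP90 and chaperonin genes, 0.12 for the 5 small heat shock proteins, 0.05 for the 4 DNAJA, 0.01 for the 7 DNAJB and 0.00 for the 26 DNAJC genes, beside -0.00 for all genes. With 1 array left out, these medians ranged from 0.07 to 0.19 for HSP70 and HSP110, from -0.01 (without scrambled replicate 2) to 0.15 for HSP90 and chaperonins, and from -0.00 (without scrambled replicate 1) to 0.22 (without scrambled replicate 2) for the small heat shock proteins. They ranged from -0.00 to 0.10 for DNAJA, from -0.05 to 0.02 for DNAJB and from -0.06 to 0.06 for DNAJC. Of 29 genes with several measured probes, 18 had all probes on the same side of 0 and 11 had probes on both sides.

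**Figure D2:**
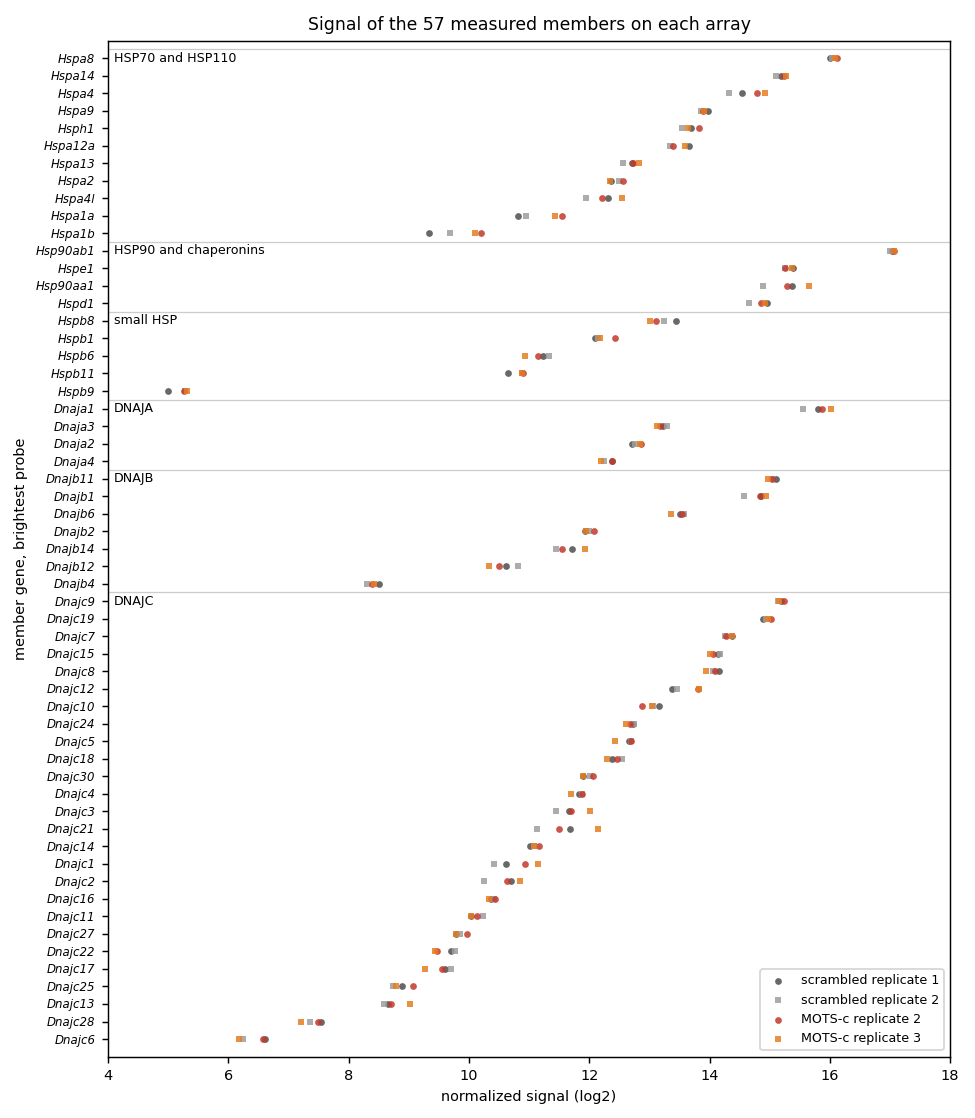
Normalized log2 signal of the brightest probe of each of the 57 measured genes (x axis) on the 4 arrays, by family, with the gene names on the y axis. The 4 points of most genes lie close together, and those of Hspa1a and Hspa1b are split into scrambled on the left and MOTS-c on the right.

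The inducible cytosolic HSP70 genes Hspa1a and Hspa1b, which are low in unstressed cells and rise steeply under heat or proteotoxic stress, had the largest differences of the 57 genes. Hspa1a had a signal of 10.81 and 10.95 in scrambled replicates 1 and 2 and of 11.55 and 11.43 in MOTS-c replicates 2 and 3. Both MOTS-c samples were thus above both scrambled samples, with a log2 fold change of 0.61 (SE 0.13, 1.52-fold, adjusted p by limma 0.500). Hspa1b had signals of 9.34 and 9.68 with the scrambled peptide and of 10.20 and 10.10 with MOTS-c. Again the groups did not overlap, and the difference was 0.64 on the log2 scale (SE 0.16, 1.56-fold, adjusted p by limma 0.534). The call of each was lost without scrambled replicate 1, which was the lowest array for both (log2 fold change then 0.54 for Hspa1a and 0.47 for Hspa1b). These are near-identical gene copies with 1 probe each, and how far one probe also read the other transcript was not tested.

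The promoters of this pair are shown because each holds 1 pair of the units that make up heat shock elements. In the RefSeq windows (GRCm38.p6, 250 bases before to 50 after the start), the 2 genes matched at 296 of 300 positions. Shown are the 120 bases before the start of Hspa1a (chr17:34972157-34972276, minus strand) and Hspa1b (chr17:34959239-34959358, minus strand), 5′ to 3′ in gene direction, with the head to head pair GAANNTTC in capitals.
Hspa1a: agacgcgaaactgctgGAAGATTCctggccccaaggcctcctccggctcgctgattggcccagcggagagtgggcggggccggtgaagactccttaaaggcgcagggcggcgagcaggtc
Hspa1b: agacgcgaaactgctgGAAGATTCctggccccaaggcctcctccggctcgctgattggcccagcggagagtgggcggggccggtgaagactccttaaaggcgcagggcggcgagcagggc
In both windows the match began 104 bases before the start.

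Hspa4 encodes an HSP110 family exchange factor of the cytosol. Its brightest probe read 14.54 and 14.32 with the scrambled peptide and 14.78 and 14.93 with MOTS-c. The groups did not overlap (log2 fold change 0.42, SE 0.14, adjusted p by limma 0.593). A second probe of Hspa4 differed by 0.12 with overlapping groups (SE 0.15), so the call rests on 1 of its 2 probes, and over the mean of both it was lost (0.27). It was also lost with any 1 array left out, at differences of 0.31 to 0.54. Hspa4l, the related exchange factor, differed by 0.25 to 0.28 over its 3 probes. Its brightest probe read 12.31 and 11.94 against 12.22 and 12.54, with overlap, while the groups did not overlap on its other probes. The difference of the brightest probe ranged from 0.07 without scrambled replicate 2 to 0.44 without scrambled replicate 1. Hsph1, the heat-inducible HSP110, differed by 0.11 (SE 0.14).

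The other HSP70 genes differed little. Hspa8, the constitutive cytosolic HSP70, had a signal of 16.00 and 16.03 with the scrambled peptide and 16.12 and 16.08 with MOTS-c (0.09, SE 0.12), without overlap. Hspa13 (0.14) and Hspa14 (0.11), the latter a partner of the ribosome-associated J protein Dnajc2, did not overlap either, and the 4 probes of Hspa14 ranged from -0.10 to 0.20. Hspa2, an HSP70 of spermatogenesis, Hspa12a and Hspa9, the HSP70 of the mitochondrial matrix, were within 0.03 of 0 and overlapped. Of the 11 measured HSP70 and HSP110 genes, 6 were higher without overlap (54.5%, against 19.8% of all genes), 5 overlapped and none was lower without overlap. Scrambled replicate 2 was the lowest array for 7 of the 11 (24.3% of all genes), with a median deviation of -0.15 from each gene's mean over the arrays, and its part in this count was not tested.

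Of the HSP90 and chaperonin genes, none was called at an unadjusted limma p under 0.05. Hsp90aa1, the inducible cytosolic HSP90, read 15.36 and 14.89 in the scrambled samples and 15.29 and 15.66 in the MOTS-c samples. The groups overlapped, and the difference of 0.35 (SE 0.23; 0.33 on a second probe) fell to 0.11 without scrambled replicate 2, the lowest array. The constitutive Hsp90ab1 differed by 0.05 (SE 0.12), with signals of 17.03 and 16.99 against 17.06 and 17.06. Hspd1 (0.09, SE 0.15) and Hspe1 (-0.01, SE 0.13), which encode the chaperonin and its lid, overlapped between groups.

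Among the small heat shock proteins, differences ran both ways. Hspb1, the widely expressed Hsp25, read 12.09 and 12.15 with the scrambled peptide and 12.43 and 12.18 with MOTS-c (0.19, SE 0.14). This difference was 0.06 without MOTS-c replicate 2 and 0.31 without MOTS-c replicate 3. Hspb8, which works with the cochaperone Bag3 in the disposal of misfolded proteins, read 13.44 and 13.25 with the scrambled peptide and 13.11 and 13.01 with MOTS-c, lower in both (-0.28, SE 0.14). Hspb6 was also lower without overlap (-0.25, SE 0.14), at 11.23 and 11.33 against 11.15 and 10.92. Hspb11 (0.12) and Hspb9 (0.15) overlapped. Hspb11 was placed in the family by its symbol and is itself the family median, and Hspb9 was dim (mean signal 5.21).

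Of the 4 DNAJA genes, none was called at an unadjusted limma p under 0.05. Dnaja1, a farnesylated type I partner of Hspa8, read 15.80 and 15.56 with the scrambled peptide and 15.87 and 16.01 with MOTS-c. The groups did not overlap (0.26, SE 0.15), but its 3 probes ranged from 0.01 to 0.26. Dnaja2 was higher without overlap (0.13), and Dnaja3, the J protein of the mitochondrial matrix, was lower without overlap (-0.10). Dnaja4 overlapped (-0.03).

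The 7 measured DNAJB genes had no call either. Dnajb1, the heat-inducible Hsp40 that works with Hspa1a in disaggregation, read 14.86 and 14.58 with the scrambled peptide and 14.84 and 14.93 with MOTS-c. The groups overlapped, and the difference of 0.17 (SE 0.15) was 0.02 without scrambled replicate 2. Dnajb12, an ER membrane J protein of quality control, was lower without overlap, at 10.62 and 10.82 against 10.50 and 10.34 (-0.30, SE 0.15, and -0.22 on its second probe). Dnajb11, a lumenal ER partner, differed by -0.06 without overlap. Dnajb2, Dnajb4, Dnajb6 and Dnajb14 overlapped, and the 5 probes of Dnajb6, a suppressor of polyglutamine aggregation, ranged from -0.11 to 0.10.

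Of the 26 DNAJC genes, Dnajc1 and Dnajc12 were called, both higher (7.69%, against 8.61% of all genes called in either direction). Dnajc1 encodes an ER membrane J protein, and it read 10.61 and 10.42 with the scrambled peptide and 10.93 and 11.15 with MOTS-c. There was no overlap (log2 fold change 0.53, SE 0.15, adjusted p by limma 0.543), and the call was lost without MOTS-c replicate 3 (0.42) or scrambled replicate 2 (0.43). Dnajc12, a cochaperone of the aromatic amino acid hydroxylases, read 13.37 and 13.46 with the scrambled peptide and 13.81 and 13.82 with MOTS-c. The MOTS-c samples were both above the scrambled ones (log2 fold change 0.40, SE 0.12, adjusted p by limma 0.558). The difference lay between 0.36 and 0.43 with any 1 array left out, but no longer at an unadjusted p under 0.05.

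Of the 9 measured ER J proteins, Dnajc1 included, 2 were higher without overlap (22.2%, against 19.8% of all genes), 3 were lower (33.3%, against 22.7%) and 4 overlapped, with a median of -0.01. Dnajc1 was the only one called. Dnajc3, an ER cochaperone also known as an inhibitor of the eIF2 alpha kinases, read 11.66 and 11.44 against 11.70 and 12.01 (0.30, SE 0.17), without overlap. Dnajc10, a disulfide reductase that aids degradation of misfolded ER proteins, was lower without overlap (-0.14, SE 0.13, with 3 probes from -0.32 to -0.07). Hspa5, the HSP70 of the ER (0.01, SE 0.14), and Dnajb9, a J protein induced by the unfolded protein response (-0.02, SE 0.15), overlapped between groups.

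Of the 10 mitochondrial genes, none was called, against 8.61% of all genes and 2.77% of the 4011 brighter genes. Without overlap, 1 was higher (19.8% of all genes) and 2 were lower (22.7% of all genes). The other 7 overlapped, and the log2 fold changes of the 10 genes were -0.12 to 0.09. Dnajc19, a J protein of the inner membrane import motor, was the higher one, at 14.89 and 14.94 against 15.01 and 14.97 (0.08, SE 0.12). Dnajc15, its paralog, was lower at 14.14 and 14.17 against 14.06 and 14.02 (-0.12, SE 0.12).

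The vesicle, nuclear and ribosome J proteins had no call. Dnajc5, the cysteine string protein of secretory vesicles, differed by -0.11 (SE 0.15) with overlap. Dnajc6, the neuronal auxilin that uncoats clathrin vesicles, differed by -0.06 (SE 0.22) with overlap, and Dnajc13, an endosomal J protein, was higher without overlap (0.24, SE 0.16). Dnajc21, a ribosome biogenesis factor, had the widest spread of all 57 genes, at 11.69 and 11.13 with the scrambled peptide and 11.50 and 12.15 with MOTS-c. The groups overlapped on this brightest probe (SE 0.30) and did not on its other probes (SE 0.23 and 0.24). All 3 probes gave a difference of 0.42 to 0.44. Dnajc2, the J protein at the ribosome exit, differed by 0.26 with overlap, and Dnajc17, a nuclear J protein of splicing, was lower without overlap (-0.25, SE 0.15). Dnajc22, a membrane J protein, was lower at 9.70 and 9.77 against 9.47 and 9.43 (-0.28, SE 0.12).

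The other 9 of the 66 genes were not well above background on any array: Hspa1l, Hspa12b, Hspb2, Hspb3, Hspb7, Dnajb3, Dnajb7, Dnajb8 and Dnajb13. Of a list of 7 chaperone genes on the array known mainly from testis, 5 are among these 9, and Hspa2 and Hspb9 were measured.

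A list of 14 chaperone genes, taken as heat-inducible in the cytosol and mitochondria, was also read array by array. It held Hspa1a, Hspa1b, Hspa8, Hsph1, Hspa4l, Hsp90aa1, Hsp90ab1, Dnaja1, Dnajb1, Dnajb4, Hspb1, Hspb8, Hspd1 and Hspe1. Of these, Hspa8 and Hsp90ab1 are named above as constitutive. The median log2 fold change of the 14 genes was 0.14. Without overlap, 6 were higher (42.9%, against 19.8% of all genes), among them Hspa8 (0.09) and Hsp90ab1 (0.05). Hspb8 alone was lower without overlap (7.14%, against 22.7% of all genes), and 7 overlapped. Hspa1a and Hspa1b were the 2 genes called (14.3%, against 8.61% of all genes). Scrambled replicate 2 was the lowest array for 8 of the 14 and the highest for none, whereas over all genes it was the lowest for 24.3% and the highest for 29.2%. The median deviation of the 14 genes from their mean over the arrays was 0.04 in scrambled replicate 1, -0.14 in scrambled replicate 2, 0.03 in MOTS-c replicate 2 and 0.07 in MOTS-c replicate 3, so the scrambled samples differed by more than the MOTS-c samples. For Hspa1a and Hspa1b the order was the other way, with scrambled replicate 1 lowest.

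**Figure D3:**
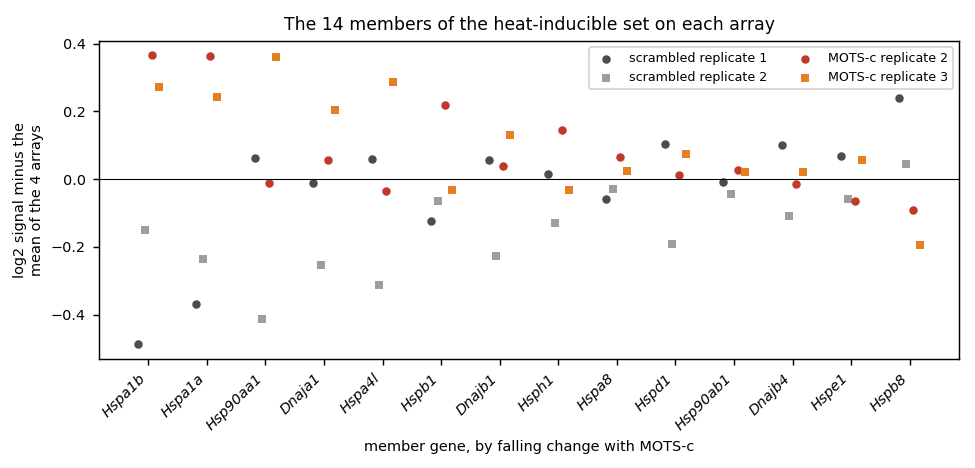
Log2 signal of the 14 genes of the heat-inducible list (x axis, ordered by their change) on each array, as the deviation from the mean of the 4 arrays (y axis, log2). Scrambled replicate 2 (grey squares) is lowest for 8 genes and scrambled replicate 1 (dark circles) lowest for 4, among them Hspa1a and Hspa1b.

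Genes of the surrounding machinery were read as well, 53 measured of 58 on the array. None was called at an unadjusted limma p under 0.05 in either direction, and 1 was by the methods' test. By limma 8.61% of all genes and 2.77% of the 4011 brighter genes were called. Without overlap, 11 were higher (20.8%, against 19.8% of all genes) and 9 lower (17.0%, against 22.7%). The other 33 overlapped, and the median of the 53 genes was -0.00. Hsf1, the master regulator of the heat shock response, read 11.72 and 11.56 with the scrambled peptide and 11.47 and 11.53 with MOTS-c, lower without overlap (-0.14, SE 0.13). Hsf2 differed by -0.03 (SE 0.13). Bag3, an HSF1 target and partner of Hspb8, read 13.85 and 13.87 with the scrambled peptide and 13.73 and 13.33 with MOTS-c (-0.33, SE 0.17). Hsp90b1, the HSP90 of the ER, differed by 0.24 (SE 0.15) and Tomm70a, a mitochondrial import receptor that docks HSP90, by 0.30 (SE 0.15), both without overlap. On the list of HSP90 cochaperones, which also holds the HSP90 proteins Hsp90b1 and Trap1, 6 of 17 measured were higher without overlap (35.3%, against 19.8% of all genes). On the same list 2 were lower (11.8%, against 22.7%). Of the subunits of the CCT chaperonin and prefoldin, which help fold actin and tubulin, 2 of 14 were higher (14.3%, against 19.8%) and 4 lower (28.6%, against 22.7%) without overlap.

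Heat shock elements are inverted repeats of the unit GAA. In the RefSeq promoter windows of 53 of the 66 genes, searched on both strands, the element of 3 units (GAA, TTC and GAA with 2 free bases between neighbours) occurred in 4 genes (7.547%, against 0.662% of 27025 genes). These were Dnajb6, Hspd1, Hspe1 and Hsph1, and in Hsph1 the match lay after the start. The head to head pair GAANNTTC, which is also part of the longer element, occurred in 13 genes (24.528%, against 9.036%), and the other pair, TTCNNGAA, also part of it, in 6 (11.321%, against 9.599%). Hspd1 and Hspe1 are transcribed away from each other from starts 215 bases apart and share 1 stretch with the element. The ER stress element (CCAAT and CCACG with 9 free bases between them) occurred in Dnajc3 alone (1.887%, against 0.137%).

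To show how these matches differ, the shared stretch of Hspe1 (chr1:55088053-55088082, plus strand, overlapping elements in capitals) and the 120 bases before the start of Dnajb6 (chr5:29735778-29735897, plus strand, element of 3 units in capitals), Hspb1 (chr5:135887799-135887918, plus strand, 2 pairs GAANNTTC in capitals) and Dnajc3 (chr14:118937812-118937931, plus strand, ER stress element in capitals) are given on GRCm38.p6.
Hspe1: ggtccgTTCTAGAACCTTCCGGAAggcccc
Dnajb6: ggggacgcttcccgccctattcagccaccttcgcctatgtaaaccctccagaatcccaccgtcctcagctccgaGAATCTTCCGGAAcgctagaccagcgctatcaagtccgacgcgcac
Hspb1: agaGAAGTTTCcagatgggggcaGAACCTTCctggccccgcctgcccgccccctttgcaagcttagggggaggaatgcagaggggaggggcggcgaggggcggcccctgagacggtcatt
Dnajc3: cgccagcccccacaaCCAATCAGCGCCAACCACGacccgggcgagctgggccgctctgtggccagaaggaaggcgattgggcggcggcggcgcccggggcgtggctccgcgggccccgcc
A match is a description of the letters in this window and not evidence of binding.

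Set beside the expression values, the 4 genes with the element of 3 units had log2 fold changes of -0.09 to 0.11, and none was called. The 14 measured genes with any heat shock match had a median of 0.03 and 2 calls, the near-identical copies Hspa1a and Hspa1b. The 31 measured genes with a window and no match had a median of 0.05 and 2 calls (Hspa4 and Dnajc1). Over all genes, 8.61% were called. Dnajc12 had no window in the table. Hspb8, lower with MOTS-c in both samples, held a pair GAANNTTC just after its start.

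**Figure D4:**
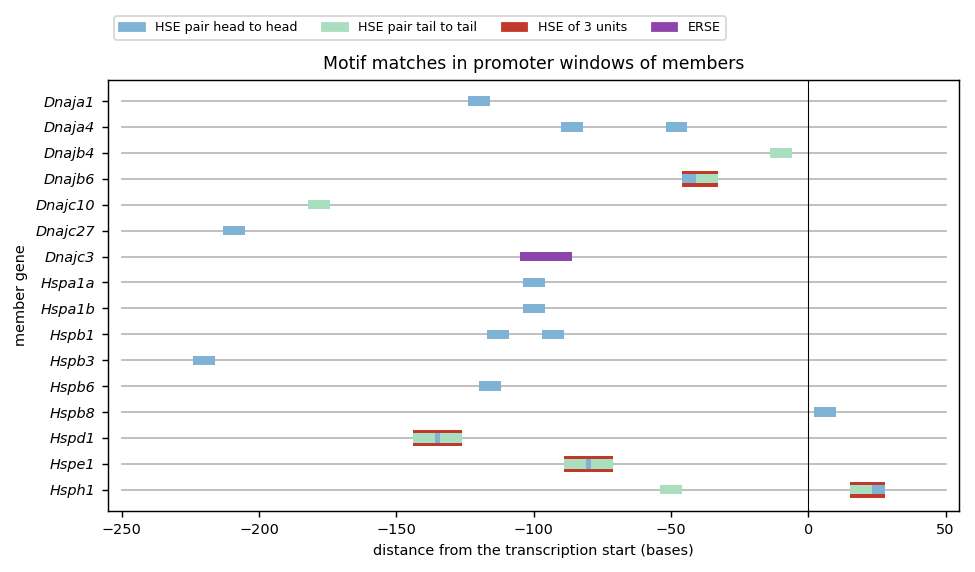
Motif matches in the promoter windows of the 16 chaperone genes with at least 1 match, by distance from the transcription start in bases (x axis, 0 at the start), with 1 window drawn for genes with several starts. Blue and green bars are pairs of heat shock units, red frames the element of 3 units and the purple bar the ER stress element; Hspa1a and Hspa1b have their pair at the same distance, and Hspb1 and Dnaja4 have 2 pairs each.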

How the data were processed

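RNA of the 4 samples was amplified, labeled with Cy3 and hybridized to Agilent SurePrint G3 Mouse GE 8x60K V2 arrays. The authors extracted the spots with Feature Extraction (version 11.0.1.1, per the file headers) and deposited processed intensity values, corrected for background on each array, with no step between arrays. The authors' value table holds the same intensity values rounded (ratio 0.995 to 1.005); its scale is linear and it is not centered. Groups and replicate numbers came from the labels.

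After removal of control and outlier spots, log2 intensities were averaged per probe. Probes read well above background by 2 or more of the 4 arrays were kept and quantile normalized. limma (3.58.1, R 4.3.3) compared the groups over 35087 probes with Benjamini-Hochberg adjustment, with 2 residual degrees of freedom and 2.64 from the other probes. The brightest probe stood for a gene. Symbols of 33001 of 56605 probes came from the gene table of GRCm38.p6. The methods' filter on Flag A is not defined in the sources used here and was not applied. The arrays' number limits the precision.

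Named were all genes at an unadjusted p under 0.05, the 2 brightest and the largest non-overlapping rise and fall per family, the heat-inducible list, unmeasured genes, Hsf1, Hspa5 and Dnajb9. Other chaperone and pathway genes were named after their values were seen, to describe a family or list. Members and lists were chosen with earlier results of these data known. Promoter windows came from RefSeq (GRCm38.p6). The alternatives were a 75th percentile shift, normexp background correction (offset 50), the authors' value table, no or a strict filter on dim probes, each array left out, limma with a trend, the mean over a gene's probes and the methods' t-test. Some marker genes are not reported here. The steps were tested on simulated data.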

Additional observations from a re-analysis of the deposited data

How the results depend on the processing

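No chaperone gene reached an adjusted p under 0.05 by limma under any alternative, or by the methods' t-test. Of 288 comparisons of named chaperone genes with an alternative, 16 lost a call, 4 gained one and 0 turned the direction of a called gene, and 256 kept direction and side of the threshold. In the other 12, a gene that was not called turned sign while near 0 (Dnajb4 in 4, Dnajc9 and Hspe1 in 3 each, Hsp90ab1 and Hspd1 in 1 each). The 5 genes called higher became 3 by the methods' t-test (Hspa1a, Dnajc12 and Dnaja2, with Dnajc15 and Dnajc22 lower) and 6 by limma with a trend. Of all genes, 2.82% were called higher in the main fit, 3.52% by the methods' t-test and 3.89% by limma with a trend. Called lower were 5.79%, 4.35% and 7.67%. With 1 array left out fewer chaperone genes were called higher, and the share of all genes called also moved. Without scrambled replicate 1 the only call was Dnajc1, without scrambled replicate 2 or MOTS-c replicate 3 the calls were Hspa1a and Hspa1b, and without MOTS-c replicate 2 Dnajc1 was called as well. Against 0 called lower, no filter on dim probes gave 1 (Dnajc22), limma with a trend 1 (Hspb8) and the methods' t-test 2, and 0 with 1 array left out. With 1 array left out, 20 to 29 genes were higher and 11 to 22 lower without overlap, since fewer samples overlap less. The shares of all genes without overlap were not counted for these settings. Whether these counts differ from those of all genes was thus not tested. Under normexp 0 genes reached 1.5-fold upward (Hspa1a 0.57 and Hspa1b 0.54 on the log2 scale) and the DNAJB median was -0.11. Of the 53 genes of the surrounding machinery, 1 was called higher under normexp (Tomm70a), against 4.51% of all genes. By the methods' t-test 1 was called higher (Unc45a), against 3.52% of all genes. By limma with a trend 2 were higher and 2 lower, against 3.89% and 7.67% of all genes. Without MOTS-c replicate 2, which leaves 1 MOTS-c sample, calls lower among the machinery genes rose, and so did the share of all genes called lower. The cause of the other moves was not tested.

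No paired analysis was run because the labels tie no scrambled sample to a MOTS-c sample. With 2 arrays a group, differences of the size of most standard errors here, about 0.14 on the log2 scale, could not be detected.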
